A study of Populus trichocarpa with 12 samples.

Results

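Xylan is the main hemicellulose of hardwood secondary walls, a chain of xylose units that carries glucuronic acid branches and coats the cellulose of wood fibres. The transcripts examined here are 7 loci of the xylan synthesis glycosyltransferases of black cottonwood (Populus trichocarpa), picked by identifier out of 41335 loci in the table. They are GT43A (Potri.006G131000) and GT43B (Potri.016G086400) of the IRX9 type, GAUT12.1 (Potri.001G416800) and GAUT12.2 (Potri.011G132600) of the IRX8 type, GT47C (Potri.009G006500) of the FRA8 type, and GUX1-A (Potri.007G107200) and GUX1-B (Potri.005G061600). The gene names come with the choice of loci, since the deposited table holds identifiers without names. In Arabidopsis, where these types were named, IRX9 is needed for growth of the xylose backbone, IRX8 and FRA8 for the short sequence at the reducing end of the chain, and GUX1 adds the glucuronic acid branches. IRX stands for irregular xylem, a class of Arabidopsis mutants whose vessels collapse.

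RNA of developing xylem, where young wood cells lay down their secondary walls, was sequenced from 9 transgenic trees and 3 wild-type trees, all of the genetic background Nisqually-1 and grown in pots in a greenhouse. The transgenic trees overexpressed the microRNA precursor PtrMIR397a from the CaMV 35S promoter, which is active in most tissues, so the transgene was not limited to the xylem. Its microRNA, miR397a, is known to act on laccase mRNAs, and laccases oxidise lignin precursors in the wall. Each line is represented by 1 tree, the series' design text calls these trees biological replicates, and tree age is not given. The wild-type trees carry the same text in the treatment field as the lines, and were taken as wild type from their titles and genotype labels. The comparison of lines with wild type asks here whether transcripts for xylan synthesis differ where miR397a is overexpressed. Because the RNA is from whole tissue, fewer cells of a type and less RNA per cell cannot be told apart. The loci of xylem markers and of markers for other tissues were not identified among the unnamed identifiers, so the tissue label was not checked against them.

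Counts summed over loci ran from 8015226 to 34112839 per library. A stretch of 9 neighbouring loci on chromosome 5 took between 1.14% (line 17) and 18.9% (wild-type tree 1) of these reads, and its share stands beside the results that it moves with. Levels are given below in CPM, counts scaled to a common library size with TMM factors, which are meant to correct for such unequal shares. The 7 members were well covered, with 1042 to 24988 reads each in every library, and together they held 0.224% to 0.378% of a library's reads. All 7 passed the filter on low counts in the main test.

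No member passed the test between the lines and wild type. In the main edgeR fit the limits of their 95% intervals went no further than 1.35-fold higher (GAUT12.1) and -17.3% (GT47C). These limits depend on the scaling. The SE of the log2 fold change was larger with library totals in place of TMM, at 0.187 for GAUT12.1 and 0.181 for GT47C. Of the 7 genes, 0 had an adjusted p below 0.05 in edgeR's quasi-likelihood test, against 0.0913% of the 26298 tested loci. At an unadjusted edgeR p below 0.05 the count was also 0 of 7, against 11.0% of tested loci. DESeq2 called 0 of the 7 at its adjusted threshold (0.571% of its tested loci) and 0 at the unadjusted one (11.8%), and limma-voom likewise called 0 (0.0799%) and 0 (11.4%). The fitted value was above wild type for 6 members and below it for GT47C. The median log2 fold change was 0.11 over the members and -0.00016 over all tested loci, of which 49.96% lay above 0. All 7 values were within 0.2 of 0 on the log2 scale in the main edgeR fit, as were 63.99% of tested loci. With library totals in place of TMM, GAUT12.1, GUX1-A and GUX1-B lay outside that band, at 0.27, 0.25 and 0.205, and the others stayed inside. The median of all tested loci was then 0.072, and the share of them inside the band was not counted for that setting. At every member the CPM values of the lines overlapped those of the wild-type trees, whereas 2.95% of tested loci had groups that did not overlap.

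**Figure D1:**
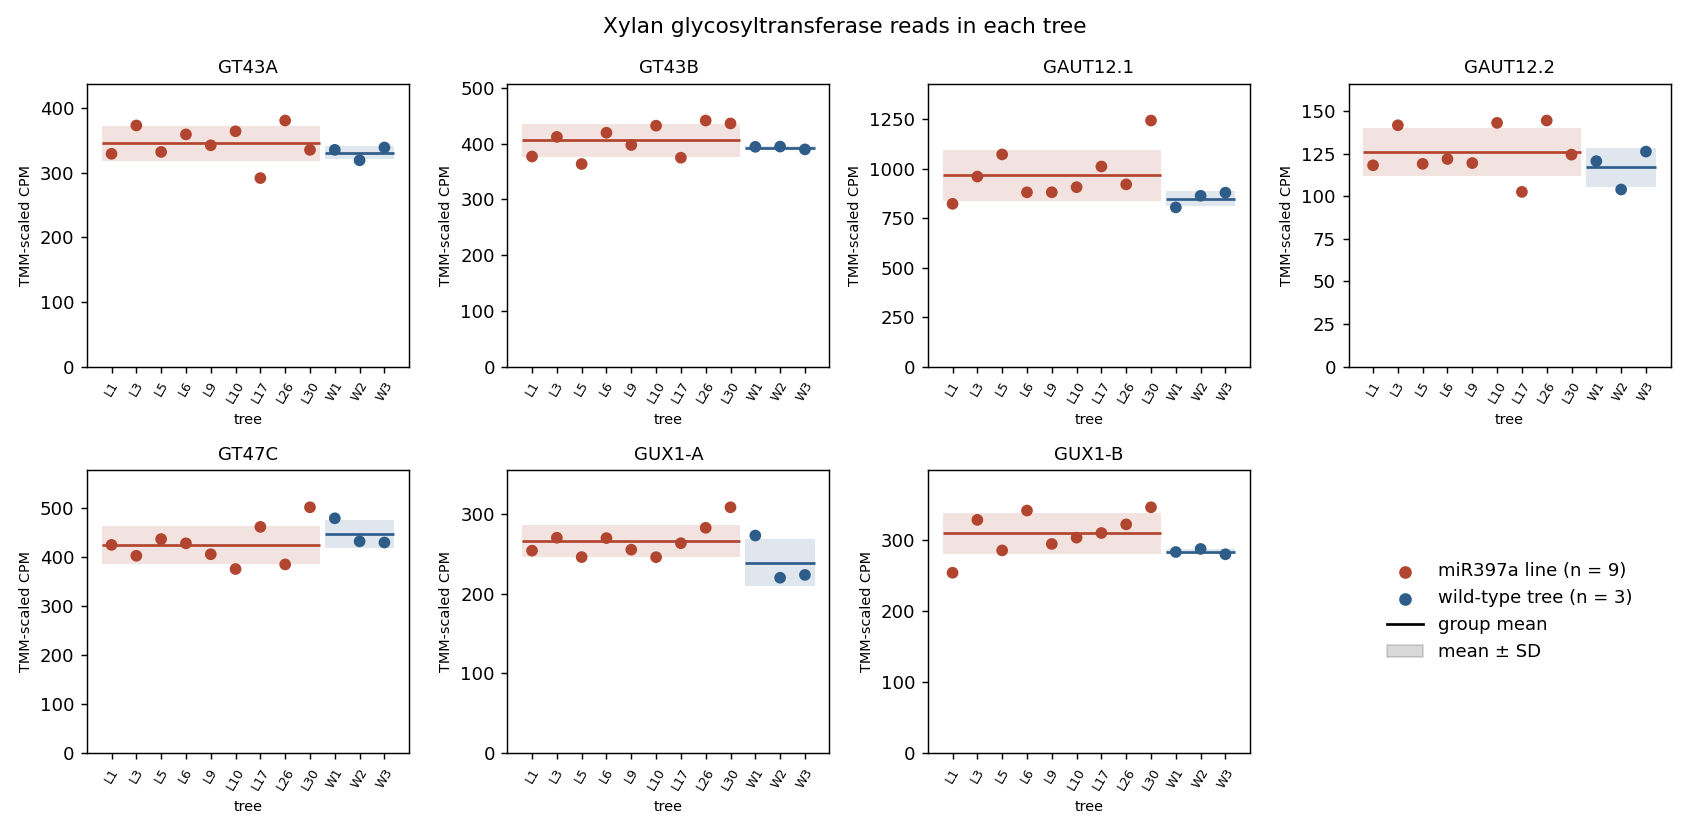
TMM-scaled CPM (y axis, from 0) of the 7 genes in each tree (x axis), with 9 miR397a lines in red (L) and 3 wild-type trees in blue (W); lines mark group means and bands the mean ± SD. The groups overlap in every panel, and line 30 has the highest GAUT12.1, GT47C, GUX1-A and GUX1-B values.

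The IRX9-type genes of the backbone step had fitted differences smaller than their standard errors. GT43A stood at 335, 319 and 339 CPM in wild-type trees 1, 2 and 3. In the lines its lowest, median and highest values were 291, 342 and 380.4 CPM. The line values thus spread to both sides of wild type, with line 17 lowest, 5 lines above all wild-type trees and 1 below them. The means were 331 ± 10.5 CPM in wild type (SD, n = 3) and 345 ± 27.4 CPM in the lines (SD, n = 9). The fitted log2 difference was 0.06 ± 0.09 (SE; adjusted p = 0.819 with edgeR), with a 95% interval from -0.12 to 0.24. It was 0.03 without wild-type tree 2, 0.13 with library totals in place of TMM and 0.11 with the chromosome 5 share as a covariate, none past the threshold.

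GT43B, its paralog, stood at 394, 395 and 389.8 CPM in the wild-type trees. The lines ran from 364 CPM in line 5 through a median of 412 to 442 CPM in line 26. The wild-type values were almost equal and lay inside the range of the lines, 6 of which were above and 3 below all of them. Its log2 fold change was 0.05 ± 0.08 (SE; edgeR adjusted p = 0.857), with a 95% interval from -0.13 to 0.22. The upper limits of both intervals correspond to rises of 18.4% for GT43A and 16.8% for GT43B.

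Of the IRX8-type genes, which belong to the galacturonosyltransferase family, GAUT12.1 had 8 of 9 lines above every wild-type tree in CPM without passing the test. As a share of the summed reads of all 7 genes, which needs no scaling, 4 of 9 lines were above and 0 below. Such counts of lines thus depend on the scaling, and how often other loci reach them was not counted. GAUT12.1 stood at 804, 863 and 878 CPM in the wild-type trees. The lines ran from 822 CPM in line 1 through a median of 920.02 to 1243 CPM in line 30. Lines 30, 5 and 17 stood highest, at 1243, 1071 and 1010.5 CPM. The means were 848 ± 39.2 CPM in wild type (SD, n = 3) and 966 ± 128 CPM in the lines (SD, n = 9). The fitted log2 difference of 0.19 ± 0.12 (SE; adjusted p = 0.561 with edgeR) had a 95% interval from -0.06 to 0.44, that is from -4.28% to 35.4%.

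GAUT12.2, the paralog with fewer reads, stood at 121, 104 and 126 CPM in wild type. Line values ran from 103 CPM in line 17 through a median of 122 to 145 CPM in line 26, with lines 3, 10 and 26 above all wild-type trees and line 17 below them. Its log2 fold change was 0.11 ± 0.11 (SE; edgeR adjusted p = 0.711; 95% interval -0.11 to 0.33). It was 0.03 without wild-type tree 2 and 0.17 without wild-type tree 3.

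GT47C, the FRA8-type gene, was the only member whose fitted value was lower in the lines. It stood at 478, 431 and 429 CPM in the wild-type trees. Among the lines it ran from 375 CPM in line 10 through a median of 424 to 501 CPM in line 30, with 6 of 9 below all wild-type trees and 1 above. Its log2 fold change was -0.07 ± 0.09 (SE; edgeR adjusted p = 0.795), with a 95% interval from -17.3% to 9.14%. It was -0.02 without wild-type tree 1, which had the highest wild-type value, and turned to 0.03 ± 0.18 with library totals.

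The GUX1 genes, for the enzymes that add the side branches, both had line means above wild type without passing the test. GUX1-A stood at 273 CPM in wild-type tree 1 and at 219.8 and 223 CPM in trees 2 and 3. The lines ran from 246 CPM in line 10 through a median of 263 to 308 CPM in line 30. Every line was above wild-type trees 2 and 3, while tree 1 was above 7 of the 9 lines. The log2 fold change was 0.16 ± 0.09 (SE; edgeR adjusted p = 0.537; 95% interval -0.04 to 0.35). It was 0.26 without wild-type tree 1 (edgeR adjusted p = 0.648) and 0.10 without wild-type tree 2.

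GUX1-B stood at 283, 287 and 279.8 CPM in wild type. The lines ran from 254 CPM in line 1 through a median of 309.8 to 346 CPM in line 30, and 7 of 9 were above all wild-type trees. As a share of the summed reads of all 7 genes, GUX1-B had 4 of 9 lines above all wild-type trees and 2 below. Its log2 fold change was 0.13 ± 0.09 (SE; edgeR adjusted p = 0.624; 95% interval -0.07 to 0.32). In CPM, line 1 was the only line below wild type, and for GUX1-A it was also among the lower lines, at 254 CPM.

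**Figure D2:**
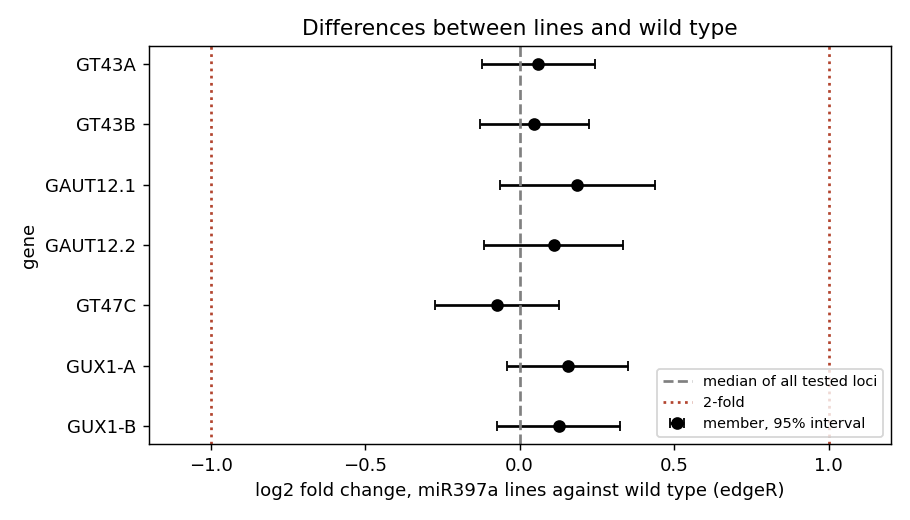
Fitted log2 fold change of each gene between the 9 lines and the 3 wild-type trees (x axis; edgeR, bars are 95% intervals), with the median of all tested loci dashed and 2-fold changes dotted. Every interval includes 0, and the widest reaches 0.44 for GAUT12.1.

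Gene lengths of the annotation were not available, so levels are not ordered between genes. The spread between lines is a ratio within each gene and does not depend on gene length, but it does depend on how libraries are scaled. With TMM scaling the highest line exceeded the lowest 1.51-fold for GAUT12.1, 1.41-fold for GAUT12.2 and 1.22-fold for GT43B. GT43B was the narrowest of the set with that scaling, and the order of the genes differs with library totals. The SD of log2 CPM over the 9 lines was 0.104 to 0.181 for the members, with a median of 0.182 over the 1642 loci of at least 100 CPM. GAUT12.1 lay at that median, with 49.4% of these loci less variable, while 12.4% were less variable than GUX1-A.

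Since 6 of the genes form 3 paralog pairs, the share of reads within a pair gives a measure that needs no scaling of libraries. It is a share of reads, not of transcripts, as the lengths of the partners may differ. How reads that align to both partners were treated is not stated in the sources at hand, so the split within a pair is uncertain where the partners are near-identical. The mean shares of the first gene differed between lines and wild type by 0.22, 0.45 and 0.67 percentage points in the GT43, GAUT12 and GUX1 pairs, less than the spread between trees. GT43A took 45.9 ± 1.48% of the GT43A and GT43B reads in the lines (SD, n = 9) and 45.7 ± 0.93% in wild type (SD, n = 3), with an exact two-sided permutation p = 0.832 on the logit scale over the 220 splits of the trees, and 0.832 after Benjamini-Hochberg adjustment over the 3 pairs. GAUT12.1 took 88.3 ± 1.79% of its pair in the lines and 87.9 ± 1.21% in wild type (exact permutation p = 0.632, adjusted 0.832). For GUX1-A the values were 46.3 ± 1.7% in the lines and 45.6 ± 3.05% in wild type (exact permutation p = 0.65, adjusted 0.832).

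Single trees differed in these balances by more than their exact intervals for counting error. The GAUT12.1 share was 90.9%, 90.8% and 89.99% in lines 30, 17 and 5, with exact (Clopper-Pearson) 95% intervals of 90.5 to 91.3%, 90.4 to 91.2% and 89.4 to 90.6%. In lines 10 and 26 it was 86.3% and 86.4%, with intervals ending at 86.8%. Lines 17 and 30 also had the lowest GT43A shares, 43.7% and 43.4%, but line 5 had the highest, 47.7%. GUX1-A reached 49.99% of its pair in line 1 (interval 49.1 to 50.9%) and 49.1% in wild-type tree 1 (47.8 to 50.3%), against 43.3 to 47.1% in the other 10 trees. These intervals cover counting error only, with every read taken as an independent count. The protocols name no molecular identifiers, so duplicate reads could not be set apart and the intervals may be too narrow.

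**Figure D3:**
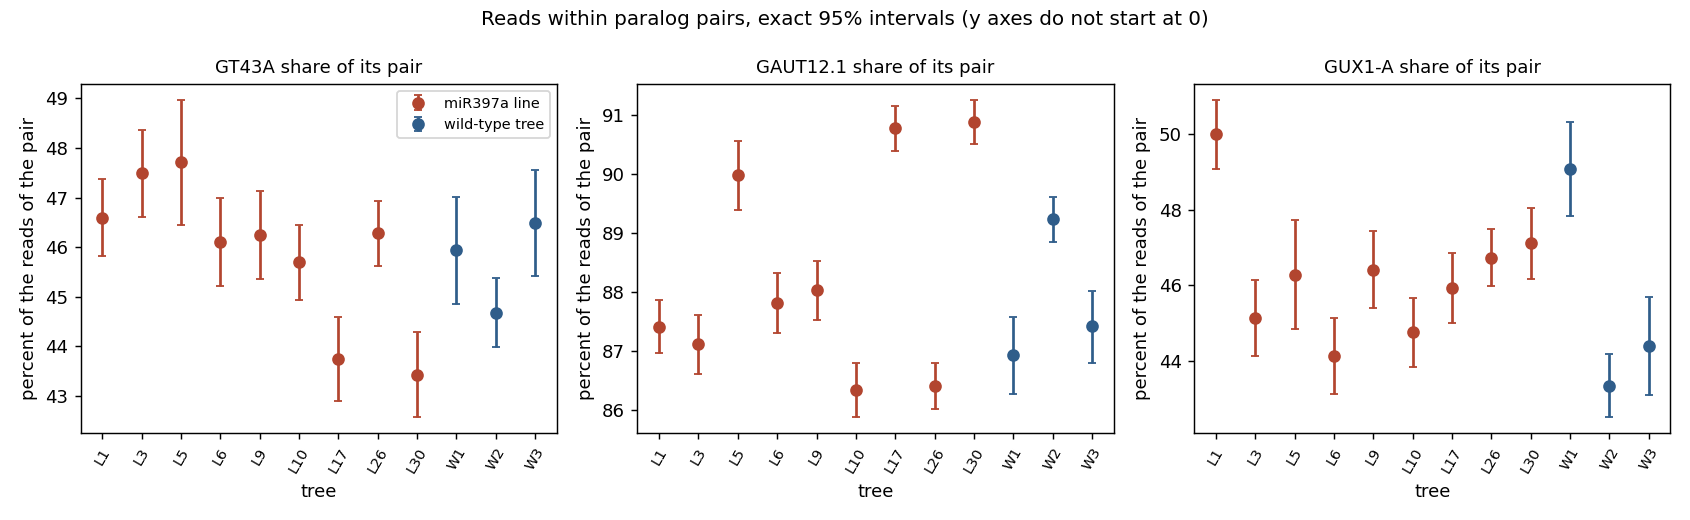
Percent of a paralog pair's reads that came from the first gene (y axis, not from 0) in each tree (x axis), with exact 95% intervals. The GAUT12.1 share spans 86.3% to 90.9% over the lines and the 3 wild-type trees fall between, at 86.9%, 89.2% and 87.4%.

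As a further measure without scaling, each gene was set against the summed reads of all 7. GT47C made up 17.8%, 16.5% and 16.1% of them in the wild-type trees. In the lines its lowest, median and highest shares were 13.4%, 15.2% and 16.5%, and 7 of 9 were below all wild-type trees. The mean share was 14.9 ± 1.12% in the lines (SD, n = 9) and 16.8 ± 0.89% in wild type (SD, n = 3), with an exact two-sided permutation p = 0.0364 that did not hold after Benjamini-Hochberg adjustment over the 7 shares (0.255). For the other 6 genes the exact permutation p was 0.232 to 0.918. The shares add to a fixed total, so a lower share of one gene raises the others.

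Variation among the lines was not uniform over the genes. Over the 9 lines, GT43A and GAUT12.2 had nearly parallel log2 CPM values (Pearson r = 0.93 with an exact permutation p = 0.000537, and Spearman rho = 0.93 with p = 0.00075; 0.0113 and 0.0157 when adjusted over the 21 gene pairs). With the extreme lines 17 and 26 removed, r was 0.83. Both genes also rose with the chromosome 5 share described below (r = 0.84 and 0.85). The median r of the 21 pairs was 0.326 and 16 of them had r above 0. Between a member and any other tested locus the median was -0.0149, with 48.9% above 0. That background includes loci with few reads and was not limited to loci of at least 100 CPM, so it is not matched to the members. Of the 21 pairs, 1 passed adjustment by Pearson and 2 by Spearman, the second being GT43B with GAUT12.2 (rho = 0.87, exact permutation p = 0.00451, adjusted 0.0473; Pearson r = 0.73, exact permutation p = 0.0259, adjusted 0.129; r = 0.64 without lines 5 and 17). How often pairs of other loci pass was not counted, so these pairs are not shown to be particular to the xylan genes. The partners of the GAUT12 pair did not vary together (r = -0.14, exact permutation p = 0.715), while those of the GT43 and GUX1 pairs had r = 0.71 each (exact permutation p = 0.0293 and 0.032, both adjusted 0.129). GT47C ran against GT43A (r = -0.68) and GAUT12.2 (r = -0.66), neither past adjustment (both 0.129). These signs depend on the scaling, since with library totals all 21 r lay above 0, with a median of 0.868 and a lowest value of 0.728.

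**Figure D4:**
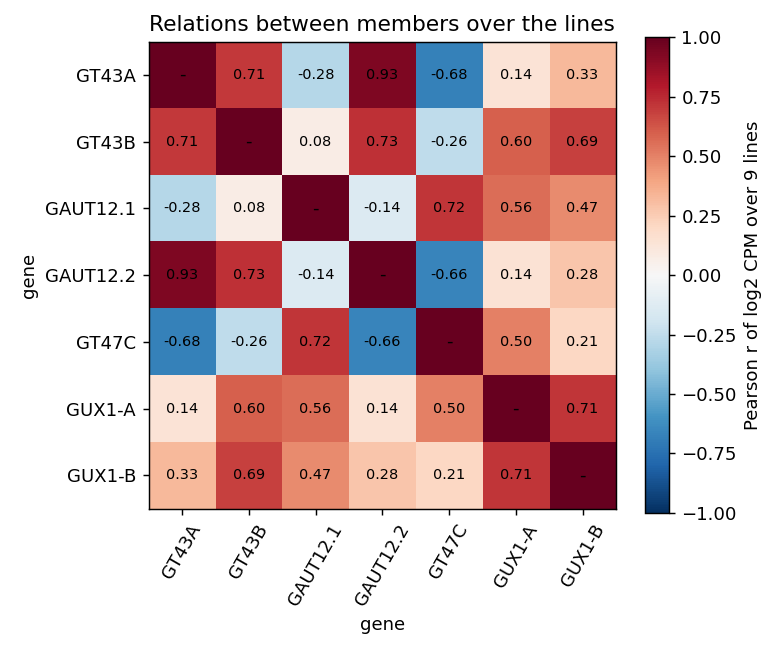
Pearson r of log2 CPM between the 7 genes over the 9 lines (both axes list the genes; red above 0, blue below). GT43A and GAUT12.2 share the highest r, 0.93, and GT47C with GT43A has the lowest, -0.68.

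The share of reads on the chromosome 5 stretch moved with 3 of the 7 members across the 9 lines, as it did with many other loci. GT47C fell as the log2 share rose (Pearson r = -0.95 with an exact permutation p = 6.34e-05, and Spearman rho = -0.97 with p = 0.000165; 0.000887 and 0.00231 when adjusted over 14 relations). Without lines 10 and 26 its r was -0.91. With library totals it was -0.97, but there the r of all 7 members lay below 0, so that value does not set GT47C apart. GT43A rose with the share (r = 0.84, exact permutation p = 0.0029, adjusted 0.0203; rho = 0.83, exact permutation p = 0.00827, adjusted 0.0579) and so did GAUT12.2 (r = 0.85, exact permutation p = 0.00466, adjusted 0.0217; rho = 0.75, exact permutation p = 0.0255, adjusted 0.119), but with library totals both turned, to r = -0.74 and -0.68. An r at least as large in size as those of GT47C, GT43A and GAUT12.2 was found at 2.44%, 14.2% and 13.8% of all tested loci, and at 12.7%, 37.1% and 36.9% of the 1642 loci of at least 100 CPM, so these relations are not particular to the xylan genes. With TMM scaling the remaining 4 members had r between -0.56 and 0.47, with permutation p adjusted to 0.345 or more by Pearson and 0.486 or more by Spearman. With library totals their r ran from -0.94 (GAUT12.1) to -0.85 (GUX1-B).

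Ratios between members avoid the scaling, and the strongest of the 21 was that of GT43A to GT47C reads. It was 0.632, 0.669, 0.761 and 0.776 in lines 17, 30, 5 and 1, then 0.84 and 0.844 in lines 6 and 9, and 0.927, 0.97 and 0.99 in lines 3, 10 and 26, whose chromosome 5 shares were 12.99%, 16.8% and 18.7%. Against the log2 share this gave r = 0.98 (exact permutation p = 8.27e-06) and rho = 0.98 (exact permutation p = 4.96e-05), adjusted over the 21 ratios 0.000116 and 0.00104, and r = 0.96 without lines 10 and 26. The ratio of GAUT12.1 to GAUT12.2 reads fell with the share (r = -0.92, exact permutation p = 0.000394; rho = -0.92, exact permutation p = 0.00131; adjusted 0.00276 and 0.00689; r = -0.88 without lines 10 and 26). It stood at 9.98, 9.84 and 8.99 in lines 30, 17 and 5 and at 6.33 and 6.36 in lines 10 and 26. In all, 12 of the 21 ratios passed adjustment by Pearson and 9 by Spearman, and ratios that share a gene are not independent. Ratios between other loci were not examined, though many other loci also moved with the share. The counts and the strongest ratios are therefore not shown to be particular to the xylan genes.

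The 3 wild-type trees followed these relations in part. Trees 1 and 3, with shares of 18.9% and 16.0%, had GAUT12.1 to GAUT12.2 ratios of 6.66 and 6.95, and tree 2, with a share of 2.80%, had 8.29. Their GT43A to GT47C ratios of 0.701 and 0.79, against 0.739 in tree 2, stayed below the 0.927 to 0.99 of lines 3, 10 and 26. GT47C itself was at 478 and 429 CPM in trees 1 and 3, where the lines of similar share had 375 to 402 CPM. Among the 6 libraries with a share of at least 5% (4 lines, 2 wild-type trees) the log2 fold change of GT47C was -0.21 ± 0.09 (SE; edgeR adjusted p = 0.25). Among the other 6 (5 lines, 1 wild-type tree) it was 0.07, a value that rests on a single wild-type tree and is given without a test. The difference between these sets was not tested. With the log2 share as a covariate over all 12 trees, GT47C stood at -0.14 ± 0.07 (SE; edgeR adjusted p = 0.28) and GAUT12.2 at 0.19 ± 0.07 (SE; edgeR adjusted p = 0.128). The part of the stretch, or of anything that varies with it, in the members' levels was not tested.

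**Figure D5:**
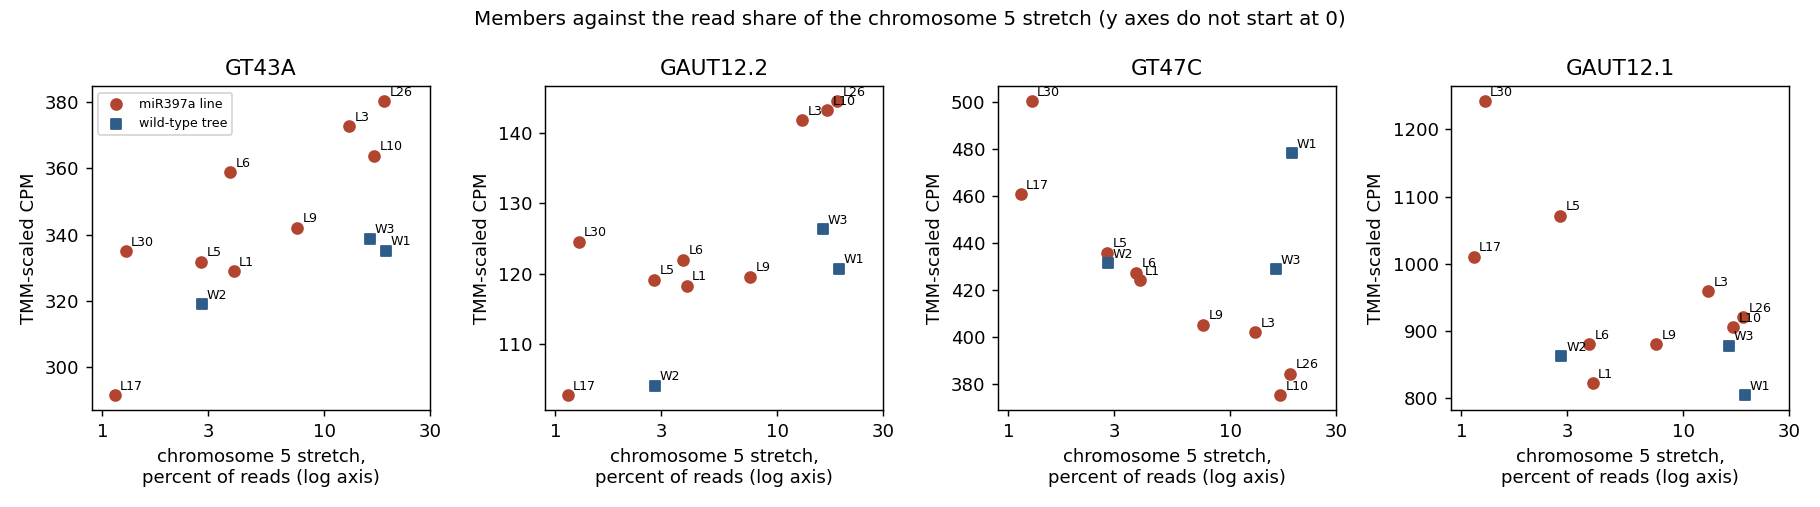
TMM-scaled CPM (y axis, not from 0) of GT43A, GAUT12.2, GT47C and GAUT12.1 against the percent of a library's reads on the chromosome 5 stretch (x axis, log scale), with lines as red circles and wild-type trees as blue squares. GT47C falls from 501 CPM (line 30) to 375 CPM (line 10), and wild-type tree 1 lies above the lines of similar share.

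A possible gradient between lines was also examined with Potri.011G041300, a locus with no gene name in the table. It had 2 reads over all wild-type libraries and 6446 over the lines, where it stood between 23.4 and 81.7 CPM. No relation of the 7 members to it over the 9 lines passed adjustment: r ran from -0.51 to 0.52, and the exact permutation p adjusted over the same 14 relations was 0.345 or more by Pearson and 0.486 or more by Spearman.

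The tested loci outside the set whose group-centred log2 CPM was on average most like the members over the 12 trees were Potri.005G117500, Potri.010G156600 and Potri.014G092300, with a mean r to the 7 members of 0.55, 0.54 and 0.53. Their lowest r with a single member was 0.04, 0.02 and 0.16, so none of the 3 followed every member. Among the members themselves the median r with the other 6 was highest for GT43B (0.56) and lowest for GT47C (-0.02) with TMM scaling. This order depends on the scaling, since with library totals over the 9 lines GT47C had r of 0.787 to 0.96 with the other members. Potri.005G117500 stood at 686 CPM in line 1, its lowest, and at 1096 CPM in line 30, its highest. It was not called between the groups (edgeR adjusted p = 0.465), nor were the other two (0.366 and 0.818). These 3 loci are given by identifier only, and r over 12 trees is a description of likeness.

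The table holds 13 transcript models for the 7 loci, with several models for GT43A, GUX1-A and GUX1-B. Counts of the models of a locus were similar: model 1 of GT43A had 99.6% of the reads of model 2, and models 1, 3 and 4 of GUX1-B had 99.0% of those of model 2. GUX1-A model 3 had 91.8% of the reads of model 1. Summing the models, or taking the lowest-numbered one, left all 7 members uncalled. That is a weak check, since the models of a locus had similar counts and the other members have a single model.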

How the data were processed

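The authors deposited 1 table of raw read counts for 73013 transcript models of 41335 loci, 1 column per tree. The submitters' processing notes name bedtools 2.14.2, Bowtie, TopHat and TopHat2 2.0.3 without saying what each did. The genome build, the annotation and how multiply aligned reads were handled are not stated in the sources at hand. Columns were matched to trees by number. A locus is represented by its model with the highest total over 12 libraries. With edgeR 4.0.16 (R 4.3.3), low loci were removed by filterByExpr (minimum count 10), libraries were scaled by TMM, and loci were tested by robust quasi-likelihood fits of lines against wild type, with Benjamini-Hochberg adjustment over all tested loci (threshold 0.05). The SE is the log2 fold change divided by the square root of F, without sign. Log2 CPM used a prior count of 2. DESeq2 1.42.0 and limma-voom (limma 3.58.1) were alternatives. Permutation tests enumerated all splits of the trees, or all orders of the 9 lines for correlations, with scipy 1.17.1 for intervals. The most similar loci were the 3 with the highest mean r, loci with identical counts being counted once.

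The members, lists and tests were chosen with earlier results of these data known. Lists of other xylan genes and of tissue markers were to be matched on gene descriptions. The reference gene table (P.trichocarpa_v4.1) holds no descriptions and matched 0 of the identifiers, so these lists were not used here, and no sequences were printed.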

Additional observations from a re-analysis of the deposited data

How the results depend on the processing

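Over 23 alternatives the 7 fold changes gave 161 values, none past the adjusted threshold of 0.05, of which 159 kept their direction. Unadjusted, the edgeR p was 0.0139 for GAUT12.2 with the chromosome 5 share as covariate and 0.0205 for GUX1-A without wild-type tree 1. For GT47C it was 0.0399 in the 6 libraries with a high chromosome 5 share. How many of all tested loci had such an unadjusted p in these settings was not counted. GT47C (Potri.009G006500) turned from -0.07 to 0.029 with library totals and to 0.065 in the 6 libraries with a low chromosome 5 share, which hold 1 wild-type tree and so say nothing of stability. This split was chosen after seeing the data, as were that of the high-share libraries, the shares of the 7 genes' reads, and the relations across lines with their ratios. With library totals the median log2 fold change of all tested loci rose to 0.072 and that of the members to 0.18. The count of called loci, 24 (21 lower, 3 higher), was 133 with DESeq2 (59 lower, 74 higher), 46 with the chromosome 5 share as covariate and 2 in the low-share libraries. It ran from 16 without wild-type tree 3 to 65 without line 1. The cause was not tested. Leaving out 1 tree, the pair differences in percentage points ran from -0.29 to 0.61 for GT43A, from -0.014 to 1.13 for GAUT12.1 and from -0.46 to 2.41 for GUX1-A, against 0.22, 0.45 and 0.67 with all trees. They turned without wild-type tree 2 (GT43A, GUX1-A; -0.29 and -0.46), without line 5 (GT43A, -0.007) and without wild-type tree 1 (GAUT12.1, -0.014). No paired analysis was possible because a number names a transgenic line in one group and a tree in the other.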
